A study of Mus musculus with 12 samples.

Results

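To ask how STAT3β-deficient (Δβ) leukemic blasts differ between the spleen (SP) and the bone marrow (BM) of diseased mice, the 3 Δβ libraries from SP were compared with the 3 from BM across the transcriptome. Of the 24454 genes in the deposited table, 11406 had a mean of at least 10 normalized counts over these 6 libraries and were tested. The blasts were Venus+ cells sorted by flow cytometry from diseased animals. They descended from fetal liver cells of Δβ mice that had been transformed with a retroviral vector carrying the MLL-AF9 fusion oncogene and Venus, a fluorescent protein, and injected into the tail vein of male NSG mice (NOD.Cg-Prkdc scid Il2rg tm1Wjl/SzJ), a strain without mature T, B or NK cells. The WT groups, 3 libraries from SP and 3 from BM, carried the same oncogene and reporter on a STAT3β-proficient background, so the series held 12 libraries of 4 groups. Since MLL-AF9 and Venus were common to every library, no sample represented untransformed cells, and the Δβ genotype itself was shared by both organs compared here. The recipients were several weeks old at injection. Their ages when the blasts were collected, and whether an SP and a BM library of the same number came from 1 mouse or 1 transformed culture, are not given in the sources used here.

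STAT3 is a transcription factor that cytokine receptors activate through JAK kinases. Its splice isoform STAT3β lacks the C-terminal transactivation domain of the full-length STAT3α. The spleen and the marrow offer leukemic cells different surroundings: the marrow is the site of normal hematopoiesis, with stroma, bone surfaces and regions low in oxygen, whereas the spleen filters blood, recycles the iron of red cells and houses lymphoid follicles. Interferons induce guanylate-binding proteins (GBPs) and immunity-related GTPases (IRGs), which act against pathogens within cells, and the machinery that loads peptides on major histocompatibility complex (MHC) class I molecules.

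Between 9001051 and 13859727 reads were counted on genes in the 6 libraries, and 12350 to 12975 genes had at least 3 reads, the count taken as the floor of detection. A single read was worth 0.775 to 1.17 normalized counts, so the floor lay at 2.33 to 3.50. This floor covers counting error only. The 6 libraries separated first by replicate number, which took 72.2% of the variation between them on the log2 scale (2 degrees of freedom). Organ took 12.01% (1 degree of freedom) and the remainder 15.79% (2 degrees of freedom). These shares are sums of squares not divided by their degrees of freedom, so their sizes are not directly comparable. After removal of each organ's mean, same-numbered SP and BM libraries deviated together (Pearson's r across genes of 0.690, 0.641 and 0.646 for numbers 1, 2 and 3), while those of different numbers did not (r of -0.177 to -0.491). The 3 deviations of an organ sum to 0 for each gene. Positive same-number values therefore push the others below 0 on average, so the negative values are not separate support for the pairs. Genes are not independent replicates, and r is a description. The same check in WT blasts gave r of -0.009, -0.039 and -0.237. The Δβ libraries were therefore also analysed as 3 pairs.

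For the genes in this paragraph, replicate 3 stood apart from replicates 1 and 2 in both organs. Over all genes tested it did not do so clearly. In SP, Pearson's r of log2 values was 0.966 for replicates 1 and 2, 0.960 for 1 and 3 and 0.964 for 2 and 3. In BM, r was 0.956 for replicates 1 and 2, 0.925 for 1 and 3 and 0.954 for 2 and 3. Ddx3y, a Y-linked gene, had 1214, 1167 and 1.07 normalized counts in SP replicates 1, 2 and 3 and 1179.6, 1154 and 14.5 in the BM replicates. Xist, the RNA that silences an X chromosome in female cells, had 891, 1920 and 24820.2 in SP and 3849.8, 949.7 and 10277 in BM. Thus replicate 3 was low in the Y-linked transcript and high in Xist in both organs. The interferon-induced Gbp2 had 1974, 2303 and 267 normalized counts in SP and 1301, 1349 and 27.97 in BM, again with replicate 3 lowest within each organ. The eosinophil granule gene Epx was high in replicate 3 alone, with 2.33, 4.48 and 263 in SP and 3.26, 31.5 and 520 in BM. The part of these differences in the results below was not tested beyond leaving out replicate 3.

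The blast identity given by the labels was checked against 8 markers of MLL-AF9 myeloid cells, all of which were detected in all 6 libraries. Mpo, which encodes the myeloperoxidase of primary granules, had 53209.5, 25775 and 30744 normalized counts in SP and 41895, 27629.6 and 24214 in BM. The MLL-AF9 target Hoxa9 had 2241, 1576 and 3409.9 in SP and 2335, 1237 and 3401 in BM, and Itgam (CD11b) had 8530.1, 7855 and 10473 in SP against 12778, 10652 and 10448 in BM. All 3 were therefore well above the floor in both organs.

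Without the pairs, 0 of 11406 genes (0%) had an adjusted p under 0.05 by limma, the lowest being 0.997, and 262 genes had an unadjusted p under 0.05. For a single gene, 3 libraries against 3 allow no two-sided exact p below 0.1, and p-values were therefore taken from models over all genes. With the pairs as a block, limma called 0 genes (lowest adjusted p = 0.111), with 1190 genes (10.4%) at an unadjusted p under 0.05. Of these, 489 (4.29%) were higher and 701 (6.15%) lower in SP. The quasi-likelihood test of edgeR called 0 genes without the pairs (260 at an unadjusted p under 0.05) and 0 with them (1140 at an unadjusted p under 0.05, lowest adjusted p = 0.133). DESeq2 on the recovered reads called 6 genes (0.0526%) without the pairs, namely Fam101b, Jchain, Lmna, Prkcb, Slc40a1 and Tppp3. With the pairs it called 78 of 11406 (0.684%), 38 of them higher (0.333%) and 40 lower (0.351%) in SP. These 78 genes are described below as the genes that DESeq2 with the pairs, but neither limma nor edgeR, placed under the threshold. When each pair was left out in turn, paired DESeq2 called 39, 24 and 61 genes without replicates 1, 2 and 3, of which 21, 16 and 29 were among the 78. The 7 genes that passed in all 3 of these fits were Bzrap1, Gbp7, H2-K1, Hspa1b and Tap1, higher in SP, and Fam101b and Ngp, lower in SP, while 37 of the 78 passed in none of them. A further 11 passed in 2 of the 3 fits, namely C4b, Gbp5, H2-Q4, Hspa1a, Lgals3bp, Psmb9, Serpina3f and Tppp3, higher in SP, and Fcnb, Kit and Syne1, lower in SP. When 1 library was left out without its partner, the unpaired difference was followed for 86 genes. It changed sign for C4b, Cd22, Clec11a, Gata2, Stat3, Epx, Slc13a5 and Tcf7. Other genes named here, such as Gbp2, Mpo, Hoxa9, Cxcr4 and Cd79b, were not among the 86. The median log2 difference of all genes tested was 0.002.

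**Figure D1:**
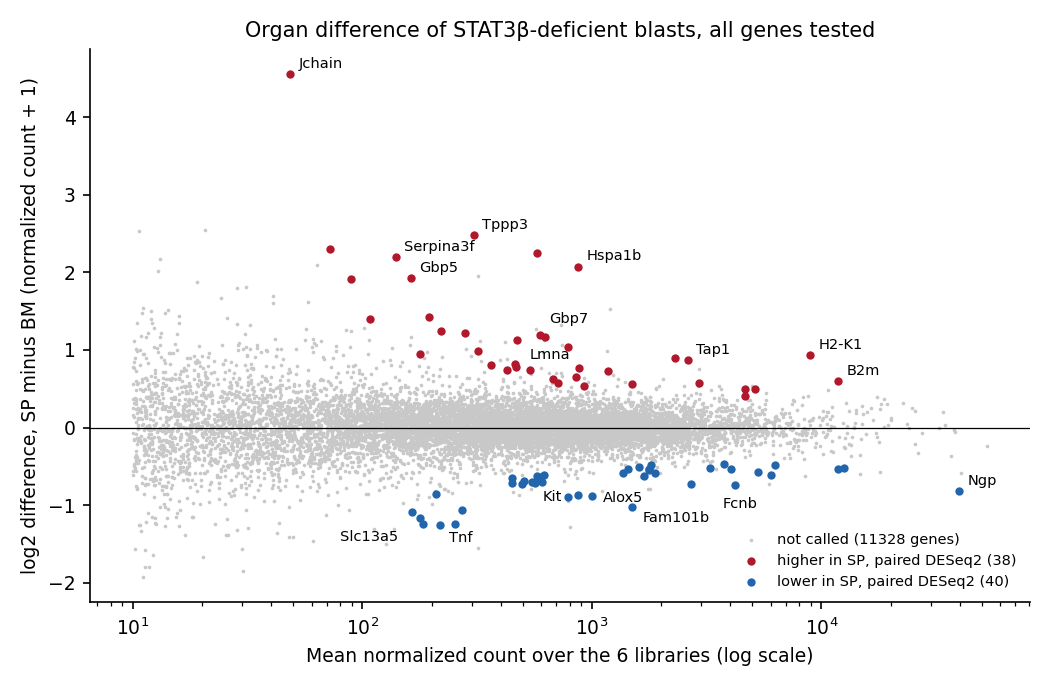
Log2 difference between SP and BM (y axis, SP minus BM) against the mean normalized count over the 6 Δβ libraries (x axis, log scale), 1 point per gene tested. Red and blue points are the 38 and 40 genes called higher and lower in SP by DESeq2 with the replicate pairs; all other genes are grey.

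All differences below are SP minus BM, computed after adding 1 to each normalized count and taking log2, which understates the change of low genes. Of all 11406 genes, 1801 (15.8%) were higher and 2141 (18.8%) lower in SP in 3 of 3 pairs. The counts of each list below are to be read beside these shares. Standard errors (SE) are from limma with the pairs, and every adjusted p is named by its tool. Positions are those of RefSeq on GRCm38, the build named in the submitters' processing notes.

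The GBP and IRG family was higher in SP in nearly every member and pair. Of its 15 tested genes, 14 were higher in SP in 3 of 3 pairs, against 1801 of all 11406 genes (15.8%), and 0 were lower in all 3. The median log2 difference of the list was 1.01, and it was 0.46, 0.80 and 1.87 in pairs 1, 2 and 3. By paired DESeq2, 5 of the 15 had an adjusted p under 0.05, all higher, namely Gbp3, Gbp5, Gbp6, Gbp7 and Irgm1. In paired limma 12 of the 15 had an unadjusted p under 0.05, all higher. Gbp7 (chromosome 3, 142530336 to 142550151), a guanylate-binding protein, had 1056, 1100 and 252 normalized counts in SP replicates 1, 2 and 3 and 562, 522 and 82.9 in the BM replicates. Each SP library exceeded its BM partner, although replicate 3 was lowest in both organs and the organs overlapped. The log2 difference was 1.19 (SE 0.15, adjusted p = 0.144 by paired limma and 6.35e-07 by paired DESeq2). Without the pairs, leaving out 1 library gave 0.29 (without BM replicate 3) to 1.89 (without SP replicate 3) for Gbp7. For Gbp5 (chromosome 3, 142496934 to 142522344), which promotes inflammasome assembly, the values were 359.6, 269 and 74.7 in SP and 164, 98.1 and 7.25 in BM, with a log2 difference of 1.92 (SE 0.39, adjusted p = 0.273 by paired limma and 0.000642 by paired DESeq2). The gap to BM was steepest in pair 3, where the BM value was close to the floor. Gbp3, on the same stretch of chromosome 3, had 1563, 1404 and 407 in SP and 850.2, 806 and 263 in BM (0.77, paired DESeq2 adjusted p = 0.000143). Irgm1, a regulator of the other IRG proteins, had 754, 888 and 343 in SP and 548, 508 and 177 in BM (0.74, paired DESeq2 adjusted p = 0.0111). The Gbp genes are a multigene family, and how the counting treated reads that match several members is not given in the sources used here. Without replicate 3, all but 1 of the 15 were still higher in SP in both remaining pairs, and paired DESeq2 called 2, 1 and 4 of the 15 without replicates 1, 2 and 3.

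Since these genes were higher together, promoters were searched for the letters of 2 interferon-related elements, on both strands of the 250 bases before to 50 bases after each RefSeq start. The interferon-stimulated response element (ISRE) was searched as GAAA, any 2 bases and GAAA again, and the gamma-activated site (GAS), which STAT dimers bind, as TTCNNNGAA. A promoter was found for 9236 of the 11406 genes tested and for 29 of the 38 called higher in SP. ISRE letters were in 7 of these 29 (24.1%), against 351 of the 9236 (3.8%), and GAS letters were in 7 of 29 (24.1%), against 765 of the 9236 (8.28%). Among the 40 genes called lower in SP, 31 had a promoter, with ISRE letters in 1 (Cybb) and GAS letters in 0. The genes with ISRE letters were B2m, Bst2, Gbp3, Gbp5, Gbp7, Irgm1 and 1 predicted gene, and those with GAS letters were Bst2, Ctsg, Gbp5, Gbp7, H2-M3, Serpina3f and the same predicted gene. The other 5 motifs searched in the 29 promoters were AP-1 (TGANTCA, in 3, against 6.01% of all), CRE (TGACGTCA, in 0, against 3.69%), the hypoxia response element (ACGTG, in 6, against 30.0%), the E-box (CACGTG, in 2, against 1107 of the 9236) and the GC box (GGGCGG, in 16, against 68.7%). The E-box contains the letters of the hypoxia response element, so these overlap. A match is a description of the letters and not evidence of binding. The 250 bases before the start of 4 of the genes higher in SP are shown 5′ to 3′ on the strand of the gene to display how these letters are arranged, with ISRE and GAS letters in capitals. Gbp7 has 1 ISRE and 2 GAS matches (chr3:142530086-142530335, plus strand), Gbp5 has 1 and 2 (chr3:142496684-142496933, plus strand), Bst2 has 2 ISRE matches that overlap each other and 1 GAS match (chr8:71537473-71537722, minus strand), and Irgm1 has 2 overlapping ISRE matches near its start (chr11:48871421-48871670, minus strand), all from RefSeq on GRCm38.p6. The same windows of H2-K1 and Tap1, which are not printed, held 0 matches of either element. Sites that differ from the searched letters would be missed, so a lack of matches does not show that an element is absent.
Gbp7: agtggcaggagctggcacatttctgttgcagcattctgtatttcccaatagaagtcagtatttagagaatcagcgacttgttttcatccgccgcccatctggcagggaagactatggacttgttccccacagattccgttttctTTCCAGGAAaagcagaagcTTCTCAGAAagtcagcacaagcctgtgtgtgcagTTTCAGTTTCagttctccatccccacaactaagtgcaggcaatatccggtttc
Gbp5: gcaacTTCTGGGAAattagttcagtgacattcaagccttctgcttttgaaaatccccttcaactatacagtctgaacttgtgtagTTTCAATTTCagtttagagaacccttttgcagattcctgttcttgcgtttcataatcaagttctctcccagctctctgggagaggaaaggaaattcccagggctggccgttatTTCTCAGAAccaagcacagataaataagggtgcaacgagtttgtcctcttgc
Bst2: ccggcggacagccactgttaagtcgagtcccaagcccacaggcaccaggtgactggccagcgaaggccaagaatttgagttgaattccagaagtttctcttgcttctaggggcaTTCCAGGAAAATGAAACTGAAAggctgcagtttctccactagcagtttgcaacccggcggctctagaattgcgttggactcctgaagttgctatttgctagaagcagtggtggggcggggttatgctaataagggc
Irgm1: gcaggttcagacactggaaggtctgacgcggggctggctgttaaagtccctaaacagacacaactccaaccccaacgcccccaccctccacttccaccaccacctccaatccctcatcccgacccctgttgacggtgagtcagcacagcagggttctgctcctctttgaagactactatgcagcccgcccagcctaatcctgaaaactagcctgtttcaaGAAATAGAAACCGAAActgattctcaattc

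The genes of MHC class I presentation were higher in SP by a similar amount in each pair. Of 19 tested genes, 18 were higher in 3 of 3 pairs and 0 were lower, with a median log2 difference of 0.57 and medians of 0.57, 0.54 and 0.63 in pairs 1, 2 and 3. Paired DESeq2 called 9, all higher, and 16 had an unadjusted p under 0.05 in paired limma. H2-K1 (chromosome 17, 33996012 to 34000619), a classical class I heavy chain, had 13686, 14946 and 6124 normalized counts in SP and 8540.1, 7183 and 2930.3 in BM, and a log2 difference of 0.93 (SE 0.12, adjusted p = 0.144 by paired limma and 3.78e-10 by paired DESeq2). B2m, the light chain that all class I molecules share, had 17496, 15385 and 8161 in SP and 16734, 9116 and 4176 in BM, close to equal in pair 1 and apart in pairs 2 and 3 (0.60, paired DESeq2 adjusted p = 0.0407). Tap1, 1 subunit of the transporter that carries peptides into the endoplasmic reticulum, had 4089.9, 4341 and 1685 in SP and 2538, 2216 and 868 in BM, for a log2 difference of 0.87 (SE 0.09, adjusted p = 0.144 by paired limma and 1.42e-08 by paired DESeq2). Thus in each pair the SP library exceeded its BM partner for all 3 genes. Tap2, its partner in the transporter, had 3025, 4187 and 3124 in SP and 1604, 3222 and 2331 in BM (0.57, paired DESeq2 adjusted p = 0.0163).

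Subunits of the immunoproteasome, which cuts proteins into the peptides that class I molecules carry, were among the 9 called. Psmb9, a catalytic subunit, had 1555, 2035 and 837 normalized counts in SP and 1001, 1084 and 539 in BM (0.73, paired DESeq2 adjusted p = 0.000189). Psmb10, another catalytic subunit, had 1908, 2199 and 1237 in SP and 1145, 1558 and 914 in BM (0.56, paired DESeq2 adjusted p = 0.0111), and the activator subunit Psme2 had 829, 1088 and 626 in SP against 616, 762 and 363 in BM (0.57, 0.0411). The RefSeq starts of Tap1 and Psmb9 lie 226 bases apart on opposite strands of chromosome 17, so their promoters overlap. The nonclassical class I genes H2-Q4, H2-Q5 and H2-M3 had log2 differences of 1.17, 2.30 and 1.22, with paired DESeq2 adjusted p of 1.57e-06, 0.00329 and 0.0225. H2-Q5 was below the floor in BM replicate 3 and is not in the list of 19. The H2 genes are close relatives whose reads the counting could have split, so single members are uncertain. In the fits that left out a replicate, paired DESeq2 called 7, 2 and 6 of the 19 without replicates 1, 2 and 3.

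**Figure D2:**
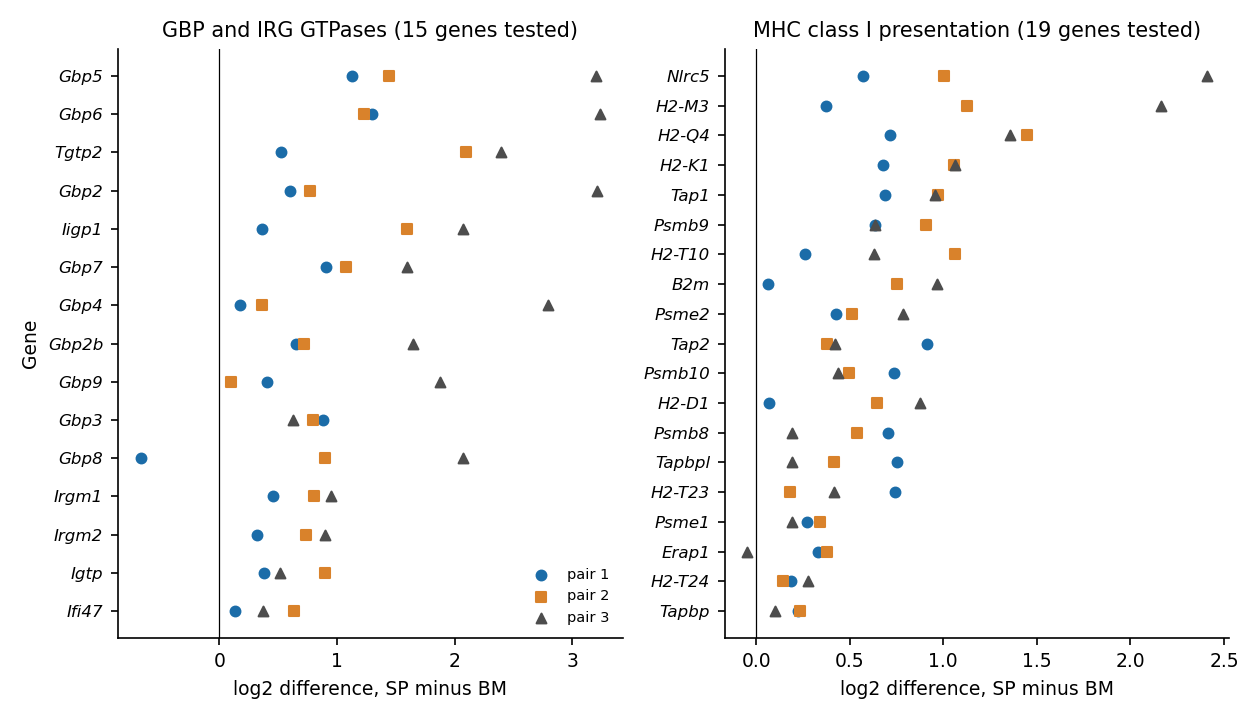
Log2 difference between SP and BM (x axis, SP minus BM) of each tested gene of the GBP and IRG list (left, 15 genes) and the MHC class I list (right, 19 genes), 1 point per replicate pair. Most points lie to the right of 0; pair 3 lies farthest right for many GBP genes, whereas the 3 pairs overlap for most class I genes.

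For MHC class II presentation, which is usual in antigen-presenting cells, the median over 10 tested genes was 0.90 but varied from pair to pair (0.12, 0.71 and 1.61 in pairs 1, 2 and 3), and 3 of the 10 were higher in all 3 pairs. H2-Ab1, a class II beta chain, had 74.4, 333 and 70.5 normalized counts in SP and 52.2, 103 and 16.6 in BM (1.40, paired DESeq2 adjusted p = 0.0296). Ciita, the transactivator of the class II genes, had 19.4, 30.2 and 9.61 in SP and 8.70, 9.34 and 0 in BM, with all SP values above all BM values (2.02, adjusted p = 0.363 by paired limma). DESeq2 gave no adjusted p for Ciita because of its low count. Cd74 had 192, 972 and 139.9 in SP and 275, 321 and 4.14 in BM, so its pair 1 pointed the other way.

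Among the other interferon response genes, 72 of which were tested and none of which is in the GBP or class I lists, 34 were higher in 3 of 3 pairs and 1 was lower, with a median log2 difference of 0.40 (0.17, 0.28 and 0.81 in pairs 1, 2 and 3). Paired DESeq2 called 3, all higher, and 1, 0 and 2 genes of the list without replicates 1, 2 and 3, while 28 had an unadjusted p under 0.05 in paired limma, all higher. Bst2 (tetherin), which holds enveloped viruses at the cell surface, had 461, 749 and 391 normalized counts in SP and 214, 464 and 286 in BM (0.75, paired DESeq2 adjusted p = 0.0272). Lgals3bp, a secreted galectin-binding glycoprotein, had 337, 429 and 152 in SP against 185, 171 and 51.8 in BM (1.24, 0.000299). The chemokine gene Cxcl10 had 27.1, 38.1 and 33.1 in SP and 15.2, 10.5 and 0 in BM, and Cxcl9 had 15.5, 14.6 and 20.3 in SP against 11.96, 1.17 and 0 in BM. Both were higher in SP in each pair but too low for DESeq2 to give an adjusted p. Ifng itself was at 3.10, 0 and 3.20 in SP and 10.9, 0 and 0 in BM, at or near the floor in all but BM replicate 1. Outside the list, the serine protease inhibitor gene Serpina3f had 286, 355 and 30.96 normalized counts in SP and 94.6, 67.8 and 4.14 in BM (2.20, paired DESeq2 adjusted p = 8.81e-07), the complement gene C4b had 1634, 1109 and 214 in SP against 1026, 683 and 63.2 in BM (1.04, 0.00117), and Ifi27 had 589, 762 and 362 in SP against 495, 439 and 137 in BM (0.81, 0.0448). These 3 genes were lowest in replicate 3 within each organ.

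Among the heat shock proteins and chaperones, which fold proteins, paired DESeq2 called 4 of 31 tested genes, all higher in SP, and 2 without each replicate in turn. Of the 31, 24 had a difference above 0 and 7 below, 16 were higher in 3 of 3 pairs and 1 lower, with a median of 0.26 (0.39, 0.30 and 0.04 in pairs 1, 2 and 3). Hspa1b (chromosome 17, 34956429 to 34959238), which encodes the inducible HSP70, had 779.7, 3220.4 and 287 normalized counts in SP and 300.1, 564 and 55.9 in BM, for a log2 difference of 2.08 (SE 0.22, adjusted p = 0.144 by paired limma and 6.21e-17 by paired DESeq2). Its near-identical neighbor Hspa1a had 496, 2169 and 236 in SP and 196, 325 and 36.3 in BM (2.25, paired DESeq2 adjusted p = 3.87e-14). Reads of the pair may have been split by the counting, so they are 1 observation rather than 2. SP replicate 2 was the highest library for both. Pdia6, a disulfide isomerase of the endoplasmic reticulum, had 5147, 8116 and 4563 in SP and 3133, 6346 and 3390.2 in BM (0.50, paired DESeq2 adjusted p = 0.0142), and Creld2, an endoplasmic reticulum protein that stress induces, had 783, 1749.7 and 700.3 in SP against 481, 1302 and 504 in BM (0.53, 0.0411). The mitochondrial co-chaperonin Hspe1 had 219, 329 and 242 in SP and 158, 222 and 158 in BM, a difference of 0.55 that did not pass (adjusted p = 0.397 by paired DESeq2).

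Of the remaining genes that paired DESeq2 placed higher in SP, Bzrap1 (chromosome 11, 87758194 to 87785928; Tspoap1 in RefSeq), which encodes a protein that binds the mitochondrial TSPO protein, had 3881, 3113 and 2022 normalized counts in SP and 1997, 1769.7 and 1066 in BM. Every SP value was above every BM value, and the log2 difference was 0.90 (SE 0.08, adjusted p = 0.111 by paired limma and 4.01e-10 by paired DESeq2). In all, 335 genes (2.94%) had all SP values above all BM values. Tppp3, which promotes tubulin polymerization, had 622, 343 and 560.5 in SP and 174, 93.4 and 40.4 in BM, again without overlap (2.49, paired DESeq2 adjusted p = 0.00932). Lmna, the gene of the A-type nuclear lamins, had 679, 464 and 805 in SP against 259, 354 and 264 in BM (1.13, 0.000771), and Mvp, the major vault protein, had 1133, 1089.9 and 876 in SP against 591, 871 and 539.7 in BM (0.65, 0.0195). Neither overlapped between the organs. Pim1, a serine/threonine kinase gene that STAT3 and STAT5 are known to induce, had 1128, 933 and 431 in SP and 784, 463 and 336 in BM (0.63, paired DESeq2 adjusted p = 0.0448). Ctsg, the cathepsin G of primary granules, had 7309, 5069 and 3646 in SP and 5289, 4327 and 2095 in BM (0.50, 0.0407 by paired DESeq2). The remaining higher genes included the stem cell growth factor gene Clec11a (0.80), the collagen gene Col5a3 (0.78) and the calcium-dependent kinase gene Camk2d (0.95).

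**Figure D3:**
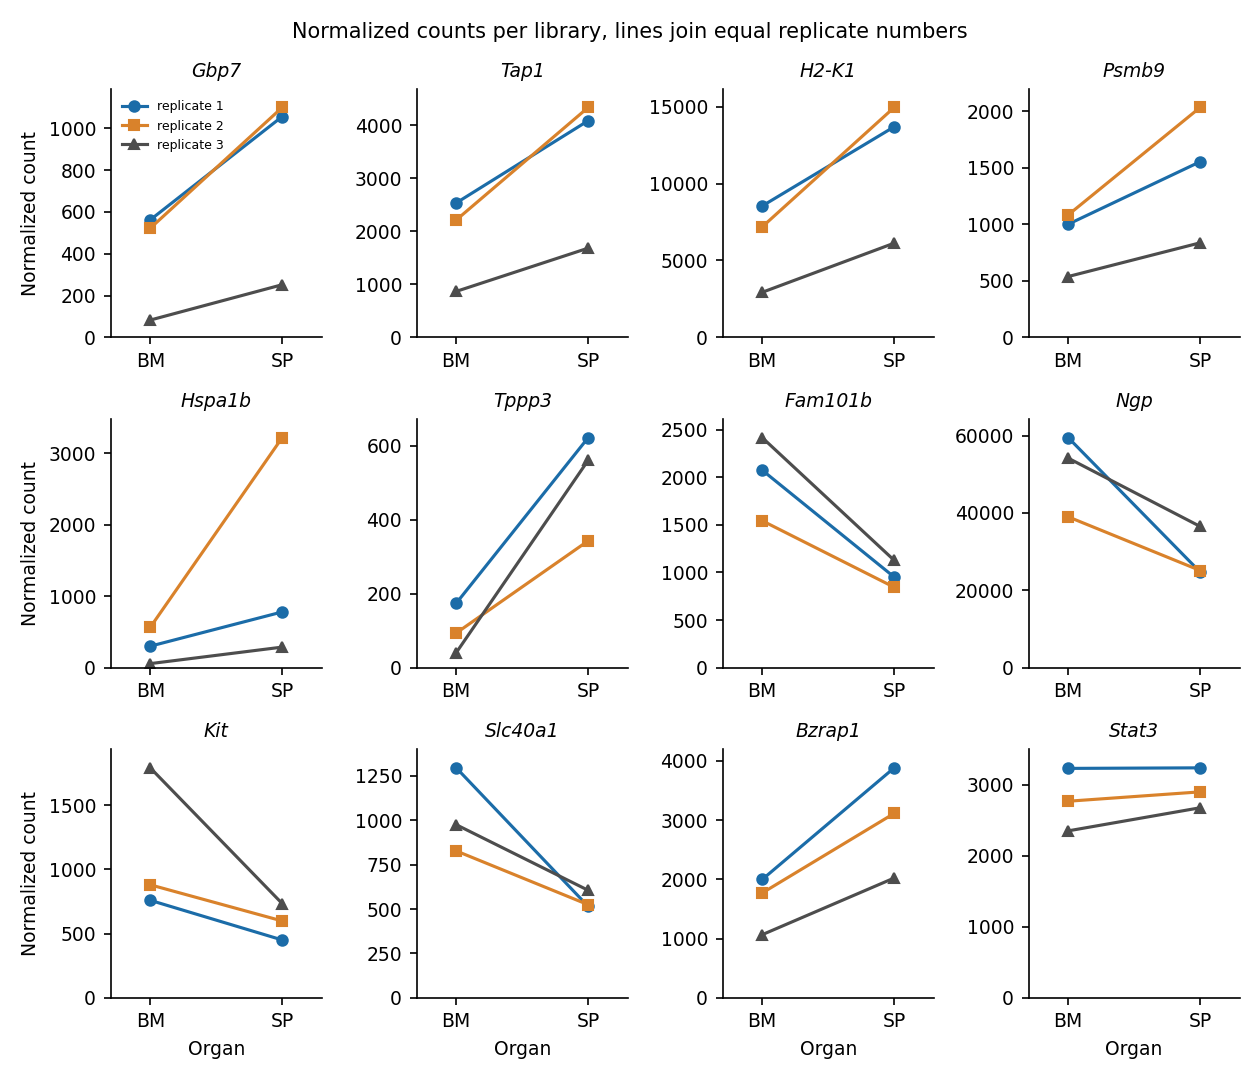
Normalized counts (y axis, linear, from 0) of 12 genes in BM and SP (x axis), with a line joining the libraries of the same replicate number. For Gbp7, Tap1, H2-K1 and Psmb9 replicate 3 starts lower and its SP value is above its BM value, as in replicates 1 and 2. Fam101b, Ngp, Kit and Slc40a1 are lower in SP in each pair, and Stat3 is nearly level.

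Genes lower in SP included those of mature neutrophil granules. Of 37 tested genes of secondary granules and mature neutrophils, 12 were lower in SP in 3 of 3 pairs and 0 higher, against 2141 of all 11406 genes (18.8%) lower in 3 of 3. The median was -0.34, and it differed in sign between pairs (-1.11, -0.31 and 0.30 in pairs 1, 2 and 3). Paired DESeq2 called Ngp, Cd177 and Slpi, all lower, and 13 of the 37 when replicate 3 was left out. Ngp (chromosome 9, 110419808 to 110423012), the neutrophilic granule protein, had 24709.8, 25105 and 36496 normalized counts in SP and 59464, 38984 and 54155 in BM, without overlap, and a log2 difference of -0.82 (SE 0.19, adjusted p = 0.309 by paired limma and 8.2e-05 by paired DESeq2). Cd177, a neutrophil surface glycoprotein, had 2446, 1833 and 1346 in SP and 5639, 3578 and 1366 in BM (-0.73, paired DESeq2 adjusted p = 0.0412), with almost no gap in pair 3. Slpi, a leukocyte protease inhibitor, had 1786, 6401 and 5996 in SP against 2845, 7413 and 11627 in BM (-0.61, 0.0258). Fcnb, the ficolin B of myeloid cells, is not in the list and had 3568, 2539 and 3399 in SP and 6091, 4594 and 5132 in BM, without overlap (-0.74, paired DESeq2 adjusted p = 2.85e-06). The 16 tested genes of primary granules had a median of 0.07, with 5 higher and 3 lower in all 3 pairs.

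Genes of stem and progenitor cells were mixed, with more lower than higher in SP. Of 44 tested genes of the stem, progenitor and MLL-AF9 list, 15 were lower and 5 higher in 3 of 3 pairs, and the median was -0.07. Over all genes tested, 18.8% were lower and 15.8% higher in 3 of 3 pairs. Kit, the receptor of stem cell factor, had 450.3, 598 and 733 normalized counts in SP and 759, 879.6 and 1789.9 in BM, without overlap. Its log2 difference was -0.86 (SE 0.15, adjusted p = 0.222 by paired limma and 0.00117 by paired DESeq2). The transcription factor gene Gata2 had 12.4, 52.6 and 237 in SP and 40.2, 70.1 and 655 in BM, so that replicate number moved it far more than organ (-1.16, paired DESeq2 adjusted p = 0.0407). Neither gene passed by paired DESeq2 without replicate 3, where 0 of the 44 did. Cd93 (-0.58) and Erg (-0.26) were lower in 3 of 3 pairs and did not pass (paired DESeq2 adjusted p of 0.124 and 0.964). Other genes called lower were Dach1 (-0.59), a transcription factor of progenitors, the insulin-like growth factor receptor gene Igf1r (-0.53), the lymphoid zinc finger gene Ikzf3 (-1.09) and Cd33 (-0.53), a sialic acid receptor of myeloid cells.

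Fam101b (chromosome 11, 76019194 to 76027782; Rflnb in RefSeq), which encodes a filamin-binding regulator of actin networks, was the only gene lower in SP, besides Ngp, that paired DESeq2 called in each fit without 1 pair. It had 952, 845 and 1127 normalized counts in SP and 2074, 1543 and 2417 in BM, and a log2 difference of -1.03 (SE 0.09, adjusted p = 0.111 by paired limma and 3.78e-10 by paired DESeq2). The organs did not overlap. Other genes called lower are described singly. The formin gene Fmnl2 had 66.7, 137 and 269 in SP and 203, 285 and 565 in BM (-1.24, paired DESeq2 adjusted p = 0.000123), the septin gene Sept1 had 129, 159 and 226 in SP against 342, 228 and 548 in BM (-1.06, 0.00533), and Prkcb, a protein kinase C gene, had 2508, 2782 and 2763 in SP against 3879, 3619 and 4026 in BM (-0.52, 0.0144). Syne1, a nesprin that links the nucleus to the cytoskeleton, had a log2 difference of -0.57 (0.000642 by paired DESeq2). Sept1, Prkcb and Syne1 did not overlap between organs, as was the case for 512 genes (4.49%) whose SP values all lay below the BM values.

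Single inflammatory mediators were lower in SP, but the NF-kB and inflammatory list as a whole was not. Tnf, the gene of tumor necrosis factor, had 106, 173 and 106 normalized counts in SP and 409, 224 and 292 in BM, without overlap (-1.26, paired DESeq2 adjusted p = 0.0115). Tnf did not pass paired DESeq2 without replicate 1 or without replicate 3. The other 36 tested genes of the NF-kB and inflammatory list held no further call, and the list's median was 0.05. Of its 37 tested genes, 7 were higher and 4 lower in 3 of 3 pairs, against 15.8% and 18.8% of all genes tested. Alox5, Lta4h and Cybb, given next, are not in that list. Leukotriene synthesis begins with arachidonate lipoxygenase, the product of Alox5, which had 674, 516 and 926 in SP and 1604, 897 and 1402 in BM (-0.88, paired DESeq2 adjusted p = 0.000207). Lta4h, the next enzyme toward chemotactic leukotriene, had 10946, 9445 and 8636 in SP against 15852, 12199 and 13917 in BM, without overlap (-0.53, 0.00711). Cybb, the catalytic subunit of the phagocyte NADPH oxidase, had 12501, 10333 and 7329 in SP and 21245, 15608 and 8494 in BM, with a gap in each pair that was smallest in pair 3 (-0.52, 0.0356 by paired DESeq2).

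Iron, hypoxia and lipid genes were examined next. Of all genes tested, 15.8% were higher and 18.8% lower in SP in 3 of 3 pairs. Of 36 tested genes of heme, iron and oxidative stress, 3 were higher and 8 lower in 3 of 3 pairs, with a median of -0.04 and 1 call by paired DESeq2. That gene, Slc40a1, which encodes ferroportin, the exporter of cellular iron, had 515, 524 and 605 normalized counts in SP and 1295, 827 and 975 in BM, without overlap, for a log2 difference of -0.89 (SE 0.15, adjusted p = 0.21 by paired limma and 0.000771 by paired DESeq2). Of 37 tested genes that hypoxia-inducible factors control, 17 were lower and 2 higher in 3 of 3 pairs, with a median of -0.20 (-0.20, -0.07 and -0.26 in pairs 1, 2 and 3). Only Bnip3l, a mitophagy receptor, was called by paired DESeq2 (1264, 905 and 1078 in SP and 2139.6, 1330.5 and 1478 in BM; -0.59, adjusted p = 0.0115). The prolyl hydroxylase gene Egln3 had 24.8, 16.8 and 32.03 in SP and 63.1, 33.9 and 128 in BM (-1.42, paired DESeq2 adjusted p = 0.117), and the glucose transporter gene Slc2a3 had 405, 323 and 418 in SP against 1079.6, 471 and 555 in BM (-0.79, 0.0514). Neither overlapped between the organs and neither passed. Cholesterol synthesis had 10 of 25 tested genes lower in 3 of 3 pairs and 0 higher, with a median of -0.27 (-0.04, -0.34 and -0.41 in pairs 1, 2 and 3) and 0 calls by paired DESeq2. Within that list Sc5d (-0.42), Msmo1 (-0.52) and Hsd17b7 (-0.72) had the lowest unadjusted p by paired limma, and their paired DESeq2 adjusted p was 0.639, 0.428 and 0.382. Lipid uptake, efflux and LXR targets had no common direction, with a median of 0.02 over 20 tested genes, 1 higher and 3 lower in 3 of 3 pairs, and 1 call. That gene, Lpl, which encodes lipoprotein lipase, was lower in SP (362, 207 and 447, against 708, 357 and 597 in BM; -0.72, paired DESeq2 adjusted p = 0.0407), as was the citrate carrier gene Slc13a5 (8.53, 75.1 and 249.8 against 25.01, 157 and 589; -1.24, 0.00567). The glycogen phosphorylase gene Pygl was also called lower (-0.48).

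Lists tied to growth held no gene called by paired DESeq2. Myc targets and ribosome biogenesis had a median of 0.21 over 59 genes, with 19 higher in 3 of 3 pairs, 0 lower and 0 called, and the pair medians were 0.38, 0.24 and -0.05 in pairs 1, 2 and 3. Its members Gnl3 and Noc2l had log2 differences of 0.34 and 0.36 (paired DESeq2 adjusted p of 0.519 and 0.428). Medians were 0.09 for 70 cytosolic ribosomal protein genes, 0.07 for 71 genes of oxidative phosphorylation, 0.06 for 46 of DNA replication, 0.02 for 50 of mitosis, -0.03 for 23 of glycolysis and 0.17 for 27 of the ATF4 and unfolded protein response, and paired DESeq2 called 0 genes in each of these 6 lists. Immediate early genes, which respond within minutes to handling and stimulation, pointed different ways in the pairs (-0.71, 0.68 and -0.59 in pairs 1, 2 and 3), with 1 of 32 higher and 0 lower in all 3.

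Adhesion and homing genes showed no common direction. Of 39 tested integrins and adhesion genes, 7 were higher and 8 lower in 3 of 3 pairs, with a median of 0.01 and 0 calls by paired DESeq2. These counts were near the shares of all genes tested, 15.8% higher and 18.8% lower. Itgb3, the integrin beta chain of the vitronectin receptor, had 493, 190.4 and 313 normalized counts in SP and 551, 384 and 783 in BM (-0.83, paired DESeq2 adjusted p = 0.0631), and Icam1 had 436, 442 and 382 in SP against 395, 342 and 266 in BM (0.34, 0.793). Cxcr4, the receptor that holds cells in the marrow through Cxcl12, had 5206, 3754 and 4328 in SP and 5140.3, 4243 and 3535 in BM, within the spread between replicates. The 20 tested chemokine and homing receptor genes had a median of -0.05, with 0 higher and 2 lower in 3 of 3 pairs. Stat3, whose β isoform is missing from these cells, had 3236, 2898 and 2674 in SP and 3228, 2766 and 2349 in BM, a log2 difference of 0.09 (SE 0.09, adjusted p = 0.732 by paired limma and 1 by paired DESeq2). Stat3 values overlapped between organs, and reads of the isoforms cannot be told apart in counts per gene. Of 23 tested genes of the STAT and SOCS list, 2 were called by paired DESeq2, both higher in SP and Pim1 among them. The feedback inhibitor gene Socs3 had 83.7, 66.1 and 52.3 in SP and 137, 71.3 and 79.8 in BM, lower in SP in each pair without passing.

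**Figure D4:**
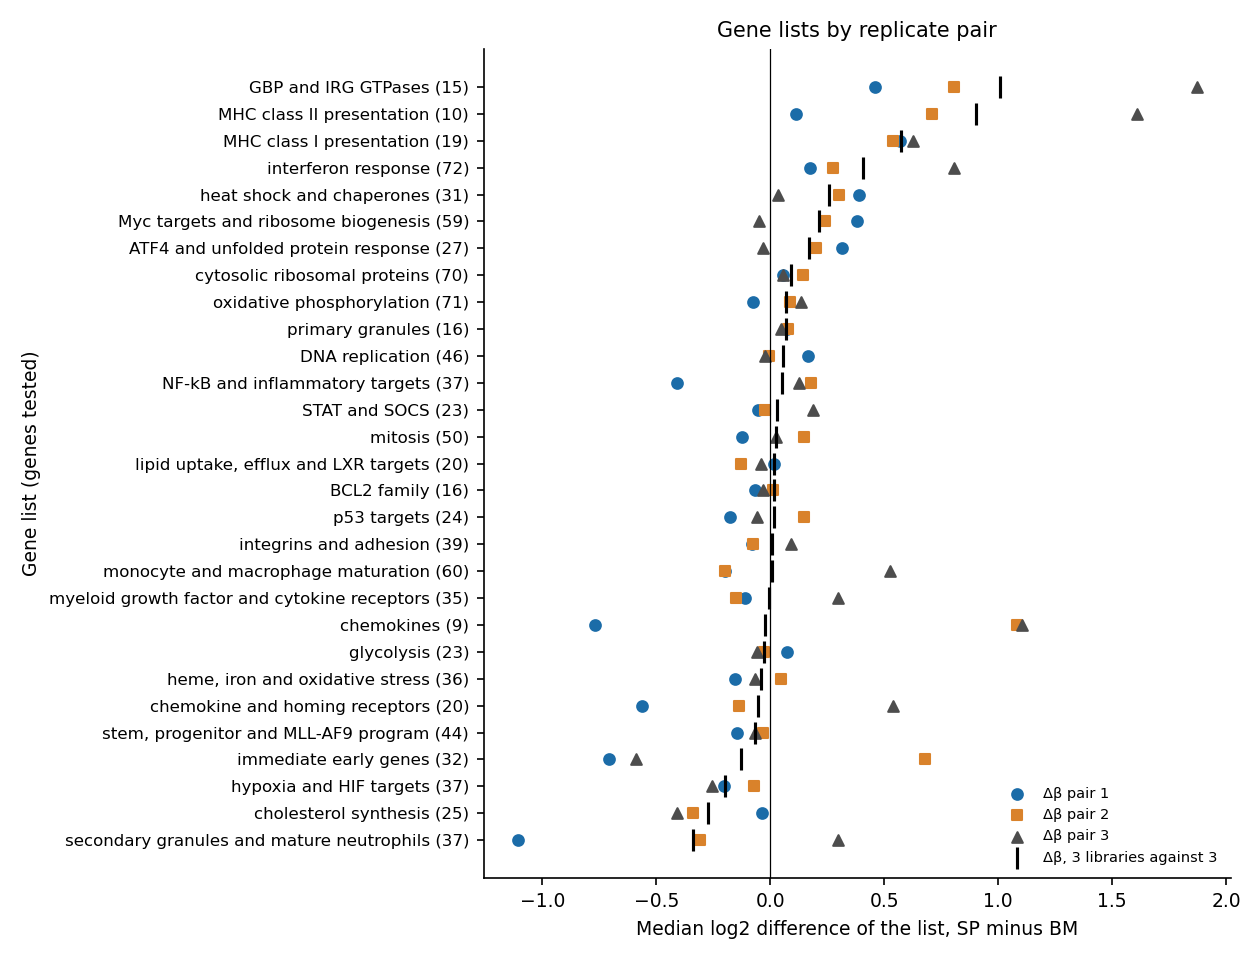
Median log2 difference between SP and BM (x axis, SP minus BM) of 29 gene lists (y axis, number of genes tested in brackets), with 1 symbol per replicate pair and a bar for the comparison of 3 libraries with 3. The GBP, MHC class I and interferon medians are above 0 in each pair, while immediate early genes and neutrophil granule genes change sign between pairs.

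Because a sort can carry other cells and the organs hold different ones, markers of 9 other cell types were examined. Fewer cells of a type and less RNA per cell cannot be told apart in these bulk libraries. The hemoglobin genes Hbb-bs and Hba-a1, which define red cells, were listed at 0 reads in all 6 libraries, and 13 of 25 erythroid markers were. Both hemoglobin genes were also at 0 in every WT library. How the counting treated reads that match several genes is not given, so these values do not show that red cells were absent. The erythroid gene Alas2 had 2.33, 5.60 and 9.61 normalized counts in SP and 1.09, 4.67 and 8.29 in BM. Macrophage markers summed to 27426, 30519 and 29401 in SP and 27146, 30555 and 23316 in BM, with 11 of 25 tested, and included Vcam1 at 1157, 2409 and 760.1 in SP and 1684, 2131 and 1244 in BM. Endothelial markers summed to 2616 to 3530.3 in SP and 2354 to 3458 in BM, with 7 of 21 tested. Among the defining genes of these lists, the red pulp macrophage gene Cd5l was at 0, 0 and 1.07 normalized counts in SP and 0, 1.17 and 0 in BM, C1qa at 2.33, 0 and 1.07 in SP against 1.09, 0 and 0 in BM, and the endothelial gene Cdh5 at 0.775, 0 and 0 in SP against 0, 0 and 0 in BM, all at or below the floor. The summed levels of each of the 9 lists overlapped between the organs, but 2 of the sums, for B and plasma cells and for dendritic cells, were higher in SP in each pair, like the GBP and class I genes. Of 9 tested dendritic cell markers, 5 were higher and 0 lower in SP in 3 of 3 pairs, and paired DESeq2 called Bst2 and H2-Ab1, which are also in the interferon and class II lists. Another of these markers, Itgax (CD11c), had 46.5, 121 and 80.1 in SP against 39.1, 44.4 and 29.0 in BM. Its values did not overlap between the organs, but it did not pass (1.03, paired DESeq2 adjusted p = 0.428). The sum of the 20 dendritic cell markers was 1774, 2774 and 2696 in SP against 1569, 2034 and 1706 in BM. Members of the B and plasma cell list differed among themselves. Ms4a1 (CD20) had 0.775, 19.04 and 6.41 in SP against 0, 0 and 0 in BM, and Mzb1, an endoplasmic reticulum protein of B cells, had 0.775, 7.84 and 13.9 in SP against 0, 0 and 0 in BM. The immunoglobulin joining chain gene Jchain had 39.5, 118 and 117 in SP and 2.17, 12.8 and 0 in BM (4.55, paired DESeq2 adjusted p = 0.0407), and Cd22, an inhibitory receptor of B cells, had 479, 259 and 36.3 in SP against 269.6, 121 and 6.21 in BM (1.43, 0.0181). Cd79b, a chain of the B cell receptor, had 459.6, 419 and 373 in SP and 431, 432 and 358 in BM, and Cd79a had 4.65, 5.60 and 9.61 in SP and 9.78, 3.50 and 6.21 in BM. Neither chain was higher in SP in each pair. The sum of the 16 B and plasma cell markers was higher in SP in 3 of 3 pairs, at 991, 869 and 595 in SP against 723, 574 and 377 in BM. T cell genes also varied, with Cd8a at 17.8, 0 and 8.54 in SP and 103, 0 and 1.04 in BM and Cd3e at 17.1, 0 and 0 in SP against 48.9, 1.17 and 0 in BM. Cd2 had 37.98, 12.3 and 76.9 in SP and 33.7, 3.50 and 5.18 in BM, higher in SP in each pair, and the granzyme gene Gzma had 47.3, 0 and 5.34 in SP and 13.05, 0 and 0 in BM. The sum of 22 T and NK cell markers was 491, 229.6 and 307 in SP against 994, 186 and 193 in BM, so it was lower in SP in pair 1 and higher in pairs 2 and 3. The part of B, T and dendritic cells in the GBP, MHC class I, MHC class II and interferon values was not tested.

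Finally, the organ difference of Δβ blasts was set beside that of WT blasts, which share no library with it. In WT SP, Ddx3y had 1990, 1547 and 1060 normalized counts and Xist had 394, 12.7 and 45.7. In WT BM, Ddx3y had 0.992, 123 and 1291 and Xist had 25480, 14503 and 27.2. WT BM replicates 1 and 2 were thus low in Ddx3y and high in Xist, unlike every WT SP library. The part of this in the WT organ difference and in the comparison of genotypes was not tested. The test of the difference between the organ effects, limma over the 11476 genes whose mean over 12 libraries reached 10, called 0 genes, with 367 (3.2%) at an unadjusted p under 0.05. edgeR called 0, with 431 at an unadjusted p under 0.05, and DESeq2 called 3 (0.0261%), which are given among the closing observations. In WT blasts, whose same-numbered libraries did not pair, limma called 0 genes between SP and BM, with 949 at an unadjusted p under 0.05. Medians of the lists, SP minus BM, were 0.57 in Δβ and 0.31 in WT for MHC class I, with all 19 genes positive in both genotypes, and 0.40 and 0.47 for the interferon response. For the GBP and IRG list they were 1.01 and 0.45, and for class II 0.90 and 1.12. Of the 19 class I genes 0, and of 13 GBP genes 0, had an unadjusted p under 0.05 for the difference between genotypes. Medians had opposite signs for heat shock and chaperones (0.26 in Δβ and -0.16 in WT), neutrophil granules (-0.34 and 0.39), immediate early genes (-0.13 and 1.05) and Myc targets and ribosome biogenesis (0.21 and -0.15). At an unadjusted p under 0.05 the genotypes differed in 1 of 31, 1 of 37, 11 of 32 and 1 of 59 of these genes, all without an adjusted call.

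Several of the genes described above were also examined in WT blasts. In WT SP, H2-K1 had 4063, 3361 and 5699 normalized counts, against 2584, 2955 and 2652 in WT BM, without overlap. Tap1 had 1039, 975 and 1333 in WT SP and 773, 759 and 861 in WT BM, without overlap. Gbp7 had 126, 113 and 259 in WT SP against 126, 103 and 113 in WT BM, and Hspa1b had 104, 336 and 214 in WT SP against 1989, 77.7 and 141 in WT BM, both overlapping. For Hspa1b the highest WT library was from BM. Tppp3 had 2327, 1593 and 274 in WT SP and 15.9, 48.4 and 45.3 in WT BM, and Jchain had 22.8, 46.6 and 87.3 in WT SP against 0, 2.25 and 1.01 in WT BM, both higher in SP without overlap, as in Δβ blasts. Fam101b had 1219, 1778 and 1517 in WT SP and 1814, 1556 and 2747 in WT BM, and Ngp had 66489.8, 88743 and 34544 in WT SP against 47319, 54252 and 115069 in WT BM. Both overlapped between the WT organs. The differences between genotypes were 2.59 for Hspa1b, 0.74 for Gbp7, -0.62 for Fam101b and -0.65 for Ngp (log2, Δβ minus WT), with adjusted p of 0.926, 0.937, 0.926 and 0.926 by limma.

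**Figure D5:**
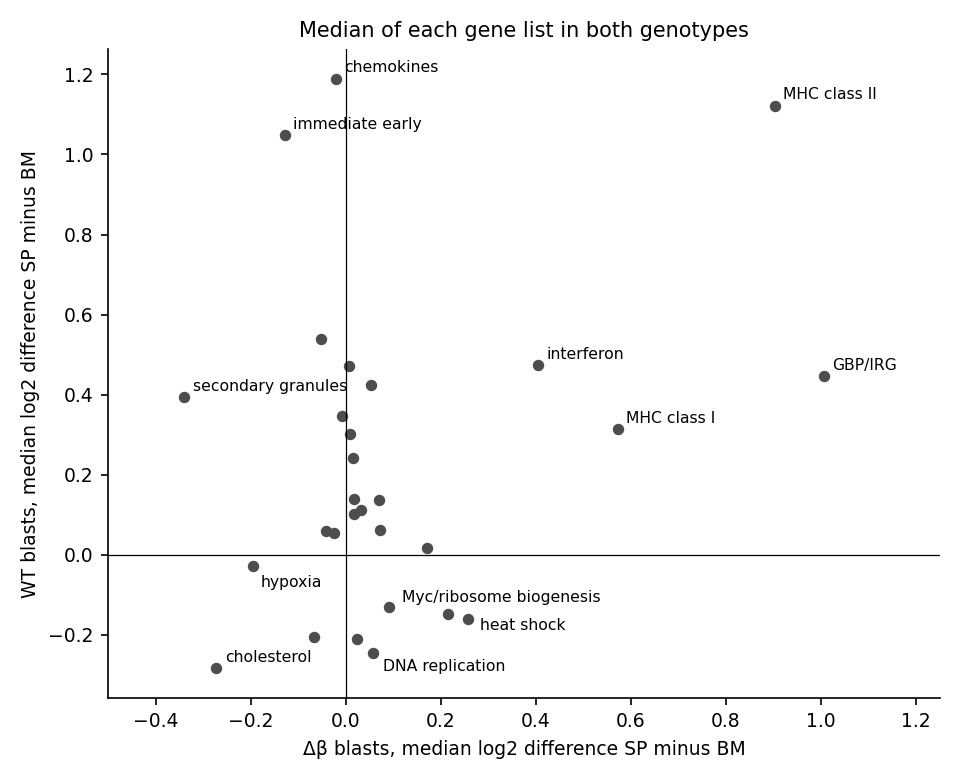
Median log2 difference between SP and BM of the 29 gene lists in Δβ blasts (x axis) and WT blasts (y axis), 1 point per list, with the lists discussed in the text labelled. MHC class I, MHC class II, interferon and GBP lists lie above 0 on both axes, whereas immediate early and neutrophil granule genes lie above 0 in WT blasts alone.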

How the data were processed

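Poly-A RNA of sorted blasts was sequenced in 12 libraries of 4 groups, 3 each. The submitters' processing notes name FastQC, STAR, featureCounts, DESeq2 and the mouse build GRCm38 (mm10). Their versions are not given in the sources used here. The values deposited by the authors are a signal per gene, namely read counts divided by a size factor per library (normalized counts). The table's header is shifted 1 place to the left, and 6 columns of no sample in this series were not used. For 100% of values, division by the value of 1 read gave whole reads within a tolerance of 0.001, and these recovered reads entered edgeR and DESeq2.

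The test covered genes whose mean over the 6 Δβ libraries reached 10, on log2(normalized count + 1) with limma 3.58.1 (trend, Benjamini-Hochberg) in R 4.3.3, without a block as the main analysis. Alternatives were the replicate number as a block, edgeR 4.0.16 (quasi-likelihood), DESeq2 1.42.0, other pseudocounts (0.25 and 4), filters (none, or a mean of 50), TMM and quantile scaling, and leaving out each library. Fits without both libraries of a replicate number in DESeq2, block fits with other scalings, and the fold limit of 1 in paired DESeq2 were added after seeing the data. Paired DESeq2 gave no adjusted p for 1548 genes. For the Δβ organ difference, limma and DESeq2 with and without the block, and edgeR with it, were first run on simulated data. The unpaired edgeR test, the organ by genotype tests and the WT organ test were not. The Δβ numbers were taken as pairs because deviations of same-numbered libraries correlated above 0.1 in every pair, as given in the report. The labels do not state a shared animal, or that replicates are separate animals, so p-values measure only the spread between these samples, which may be technical.

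Named genes were to be the largest changes passing limma and, per gene list, the called members or up to 3 by p. Since limma called none, the genes passing paired DESeq2, and others outside that rule, were named after their values were seen. Predicted genes were counted and not named, and a few called or marker genes are not reported here. Members and lists were chosen with earlier results of these data known. Promoters and positions are RefSeq's on GRCm38.p6, matched by symbol or identifier for 9236 and 11395 of the 11406 genes.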

Additional observations from a re-analysis of the deposited data

Results flagged for a closer look

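The difference between the organ effects of Δβ and WT blasts passed the threshold of DESeq2 for 3 genes and is given here for that reason. Rn45s, the precursor of ribosomal RNA, had 46183, 23229.8 and 27073 normalized counts in Δβ SP against 30179, 47358 and 68516 in Δβ BM, and 91112, 305936 and 263276 in WT SP against 29805, 18712 and 39870.4 in WT BM. Its organ difference in Δβ minus that in WT was -3.48 on the log2 scale (SE 0.64, adjusted p = 0.000344 by DESeq2). Lars2, a mitochondrial leucyl-tRNA synthetase gene, had 1905, 866 and 1032 normalized counts in Δβ SP against 1271, 2068 and 3342 in Δβ BM, and 3787, 14388 and 12392 in WT SP against 1052, 629 and 1565 in WT BM, with a difference of -4.03 (SE 0.72, adjusted p = 0.000255). The microRNA gene Mir6236 had 1869, 767 and 1021 normalized counts in Δβ SP against 838, 2289.5 and 3952 in Δβ BM, and 4642, 18296 and 15368 in WT SP against 997, 486 and 1871 in WT BM, with a difference of -4.45 (SE 0.87, adjusted p = 0.0012). All 3 were highest in the WT SP libraries, and neither limma nor edgeR called any of them. Within each group these genes ranked the libraries in the same order, so they may not be separate observations. Whether they share a source of reads was not tested.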

How the results depend on the processing

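Without the replicate pairs, limma called 0 genes under every alternative tried, and so did edgeR, whereas DESeq2 called 6. With the replicate pairs as a block, limma and edgeR called 0 genes and DESeq2 called 78, or 22 where the log2 fold change was also 1 or more in size (15 higher and 7 lower). Leaving out a pair, block limma called 0 to 23 genes (11 without replicate 1, 0 without replicate 2 and 23 without replicate 3) and block DESeq2 called 24 to 61 (39, 24 and 61). Every block alternative with another scaling, pseudocount or filter left limma at 0. The cause of the calls with fewer pairs was not tested. For the organ by genotype difference DESeq2 called 3 genes where limma and edgeR called 0.

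Leaving out single libraries moved the unpaired log2 difference between -0.20 and 1.92 for C4b, -0.13 and 2.51 for Cd22, -0.12 and 1.62 for Clec11a, -2.43 and 0.041 for Slc13a5, -2.21 and 0.036 for Gata2, -0.030 and 0.20 for Stat3, -3.29 and 0.52 for Epx, and -1.67 and 0.36 for Tcf7. For the genes called in every fit without 1 pair it ranged from 0.29 to 1.89 for Gbp7, 0.46 to 1.34 for H2-K1, 0.39 to 1.31 for Tap1, 1.12 to 2.90 for Hspa1b, 0.63 to 1.16 for Bzrap1, -1.21 to -0.89 for Fam101b and -1.01 to -0.70 for Ngp, and for Gbp5 from 0.60 to 2.77. With 3 libraries a group and 9001051 reads in the shallowest, genes near the floor of 3 reads, such as Ciita, Cxcl9 and Ms4a1, have the least precise values.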
